A study of Mus musculus with 6 samples.

Results

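miR-1897-5p, miR-1904 and miR-673 are assays of a mouse miRNA panel. On average they crossed the detection threshold earlier than, or level with, U6 in Dicer WT macrophages. miR-1897-3p is the other strand of the miR-1897 hairpin. The 4 assays were found by name among 596 miRNA assays, and all 4 lie in the second block of rows (pool B, 261 assays), which has its own 5 control assays. The 3 early assays were selected on the threshold cycle (Ct) of the WT samples, and miR-1897-3p was added as the partner strand, so the early position in WT is a description and supports nothing. The same WT values enter each KO minus WT difference of these 3 assays. The panel was run by TaqMan RT-PCR, with preamplification, on total RNA of bone marrow-derived macrophages. The Dicer KO group was made up of 3 male LysM-Cre/Dicerflox/flox/Apoe-/- mice and the WT group of 3 male LysM-Cre/Dicerwt/wt/Apoe-/- mice, all aged 6 to 8 weeks, with marrow cultured for 7 days in DMEM-F12, serum and L929-conditioned medium. Every mouse thus lacked Apoe and carried LysM-Cre, a driver active in myeloid cells, and only the Dicer alleles differed. No assay of Dicer itself was among those analysed, so the deletion was not checked at the targeted gene.

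MicroRNAs are short RNAs that pair with messenger RNAs through their seed, bases 2 to 8, and lower their output. Most are cut by Drosha from a primary transcript and then by Dicer from a hairpin, which can yield a strand from each arm. In a TaqMan assay the Ct falls as template rises, by 1 cycle for each doubling if amplification is complete. U6, a spliceosomal RNA, and the small RNAs U87, Y1, snoRNA135 and snoRNA202 are not made by Dicer and served as controls.

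The sequences come from the RefSeq miRNA table (GRCm38.p6), which matched 3 members to a mature sequence and all 4 to a hairpin; miR-1897-5p is named only. They are shown because both strands of miR-1897 come from a hairpin that the results compare with itself, and because the assay named miR-673 states no arm while the panel holds a separate assay of miR-673-3p. The hairpins carry the annotated mature strands in capitals.
Mir1897 hairpin: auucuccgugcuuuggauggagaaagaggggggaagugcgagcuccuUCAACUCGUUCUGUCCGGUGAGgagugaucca
Mir1904 hairpin: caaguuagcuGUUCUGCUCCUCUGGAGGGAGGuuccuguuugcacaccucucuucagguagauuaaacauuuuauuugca
Mir673 hairpin: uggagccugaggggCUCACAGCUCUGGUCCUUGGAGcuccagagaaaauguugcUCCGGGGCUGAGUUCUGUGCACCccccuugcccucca
The mature strands carry the seed in capitals.
mmu-miR-1897-3p: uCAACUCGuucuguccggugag
mmu-miR-1904: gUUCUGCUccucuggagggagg
mmu-miR-673-5p: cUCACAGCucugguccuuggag
The seeds of these 3 strands differ from each other, and no seed of miR-1897-5p was available to compare. Among 1679 mature mouse sequences in that table, 0 others share the seed of miR-1897-3p, 0 that of miR-1904 and 1, miR-6985-3p, that of miR-673-5p.

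Mir1897 lies at chr3:34638464-34638542 on the plus strand, inside the span of Sox2ot, a long noncoding RNA gene, and 11453 bases before Sox2. Mir1904 lies at chr13:109903809-109903888 on the plus strand, inside the span of Pde4d, which encodes a cyclic AMP phosphodiesterase. Mir673 lies at chr12:109571990-109572080 on the plus strand, in the imprinted region between Dlk1 and Dio3 and within the span of Rtl1, with Mir770 and Mir493 as the miRNA genes within 10000 bases of it. The table gives gene spans only, so exons and introns were not assigned.

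The hairpins differed in how stably they are predicted to fold. RNAfold gave a minimum free energy of -23.1 kcal/mol for Mir1904, and only 8.96% of the 1005 RefSeq mouse hairpins had a weaker energy per base. The energy was -27.4 kcal/mol for Mir1897, above which lay 27.2% of hairpins, and -42.3 kcal/mol for Mir673, above which lay 75.2%. The mature strand of miR-1904 stood at the other end: its own predicted fold was -5.8 kcal/mol, and 4.59% of mature sequences folded at least as strongly. For miR-1897-3p and miR-673-5p the mature strand had -0.3 and -1.3 kcal/mol, which 68.8% and 51.0% of mature sequences matched or passed. These are properties of letters, and their part in the signals was not tested.

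The labelled cell type was visible in the panel: miR-223, miR-142-3p and miR-142-5p, miRNAs of haematopoietic cells, were below Ct 35 in all 6 samples, and miR-1 of muscle and miR-122 of liver did not amplify in any sample, which the table lists as Ct 40. Markers of other cell types were present too. The stromal miR-143 and miR-145 and the epithelial miR-200b and miR-200c were below Ct 35 in all 6 samples, and the epithelial miR-200a, the endothelial miR-126-3p and the neural miR-9 in 2 KO and all 3 WT samples. The muscle miR-133a was below Ct 35 in 1 KO and 1 WT sample, the erythroid miR-451 in 2 KO and 1 WT samples, and the neural miR-124 in 0 KO and 1 WT samples. Their part in the results was not tested. The plant miRNA miR159a, a negative control, gave no amplification in any of 12 wells. The mean Ct of the 5 controls of pool B was 22.1, 19.3 and 19.3 in KO replicates 1, 2 and 3, and 21.1, 19.3 and 19.0 in WT replicates 1, 2 and 3. Replicate 1 thus had the latest controls in both genotypes, and the means of 20.2 ± 1.66 in KO and 19.8 ± 1.12 in WT (SD, n = 3 each) were not told apart (exact permutation p = 0.7, two-sided). With 3 samples against 3 that test cannot give a p under 0.1.

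miR-1897-5p, from the 5-prime arm of its hairpin, had Ct values of 13.0, 11.9 and 10.3 in KO macrophages, against 9.69, 11.6 and 10.4 in WT macrophages. The earliest sample was WT replicate 1 and the latest KO replicate 1, and the groups overlapped. In every sample it was among the 3 earliest of all 596 miRNA assays.

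miR-1904 had Ct values of 12.0, 11.8 and 11.8 in KO macrophages, against 10.5, 11.1 and 10.7 in WT macrophages. All KO samples came later than all WT samples, by 1.09 cycles on average before any scaling (exact permutation p = 0.1, the smallest possible). Of the 103 assays of pool B that were tested, 18.4% had all KO samples later than all WT samples on that unscaled measure. The 3 KO values lay within 0.177 cycles of each other, although the control means of the same samples spanned 2.88 cycles.

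miR-673, whose gene sits in the imprinted cluster, had Ct values of 14.9, 13.3 and 14.1 in KO macrophages, against 13.5, 15.8 and 14.3 in WT macrophages. The groups overlapped: KO replicate 2 gave the earliest value and WT replicate 2 the latest. It ranked 4th to 6th earliest in pool B in all samples. The separate assay of miR-673-3p gave no amplification in any of the 6 samples.

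miR-1897-3p behaved unlike its partner strand. It had no amplification in any KO sample, against Ct 28.0, 25.8 and 25.5 in WT samples. In WT it ranked between the 36th and the 44th earliest of the 261 assays of pool B, so it was not among the very early ones. Of the 277 miRNA assays below Ct 35 in all 3 WT samples, 5 (1.81%) had no amplification in all 3 KO samples, and of these only miR-98 had an earlier mean Ct in WT than miR-1897-3p (23.3 against 26.4).

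**Figure D1:**
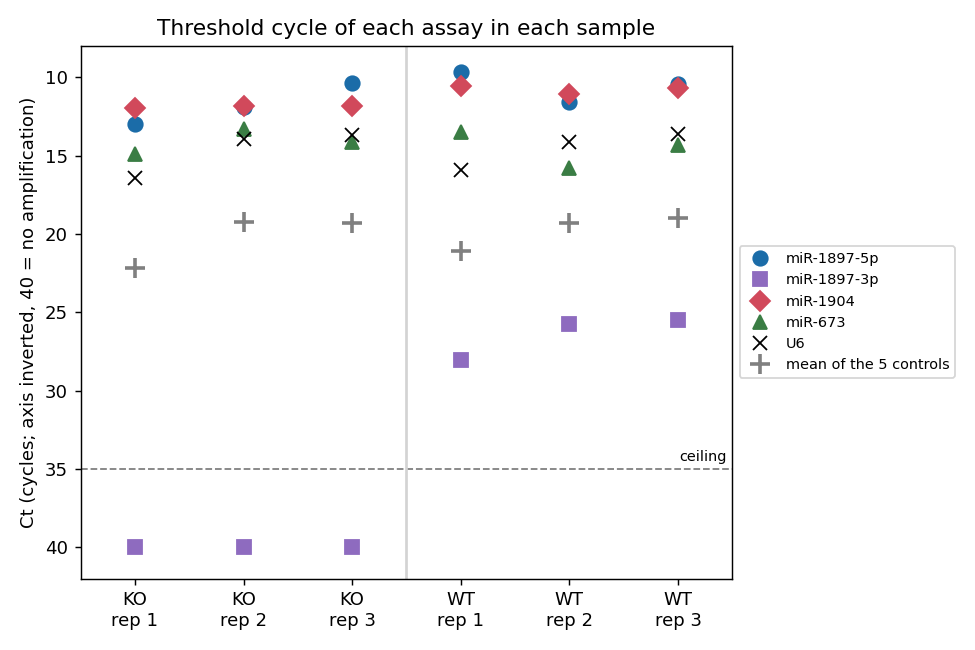
Ct (inverted axis, cycles) of the 4 assays, U6 and the mean of the 5 controls of pool B in each of 3 KO and 3 WT samples. miR-1897-5p and miR-1904 lie above U6 in all 6 samples, miR-673 lies around U6, and miR-1897-3p is at 40 in the KO samples and between 25.5 and 28.0 in the WT samples.

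The position of U6 drew the line between the early assays and the rest. U6 of pool B had a mean Ct of 14.7 in KO and 14.5 in WT. In WT the mean was 10.6 for miR-1897-5p, 10.8 for miR-1904 and 14.5 for miR-673. The mean of miR-673 was level with that of U6 to within 0.00033 cycles, but single samples differed (SD of the difference 2.15). In WT replicate 1 miR-673 was earlier than U6 (13.5 against 15.9). It was later than U6 in WT replicates 2 (15.8 against 14.1) and 3 (14.3 against 13.6). The next later assay was miR-1937c, at a mean Ct of 15.7 in WT, followed by miR-720 at 18.9. Earliness in WT also held for miR-877* (10.5) and miR-2134 (13.8), which are not members. By mean WT Ct, 5 miRNA assays of pool B, and 0 of pool A, preceded U6.

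A gap of 4 cycles stands for a large difference in signal. When 2 to the power of minus Ct was summed over the miRNA assays of pool B, miR-1897-5p made up 10.9%, 9.95% and 33.5% of the sum in KO, against 41.5%, 15.1% and 39.9% in WT. miR-1904 made up 21.6%, 10.5% and 12.1% in KO, against 23.1%, 21.3% and 32.3% in WT. miR-673 stayed between 0.806% and 3.68% over all 6 samples. The 3 early assays together held 35.9% ± 12.0 of the sum in KO and 59.9% ± 19.9 in WT (SD, n = 3 each), and with miR-877* added the share was 91.2% ± 0.806 in KO and 93.9% ± 3.80 in WT. These shares take every assay to amplify equally well, which was not measured.

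**Figure D2:**
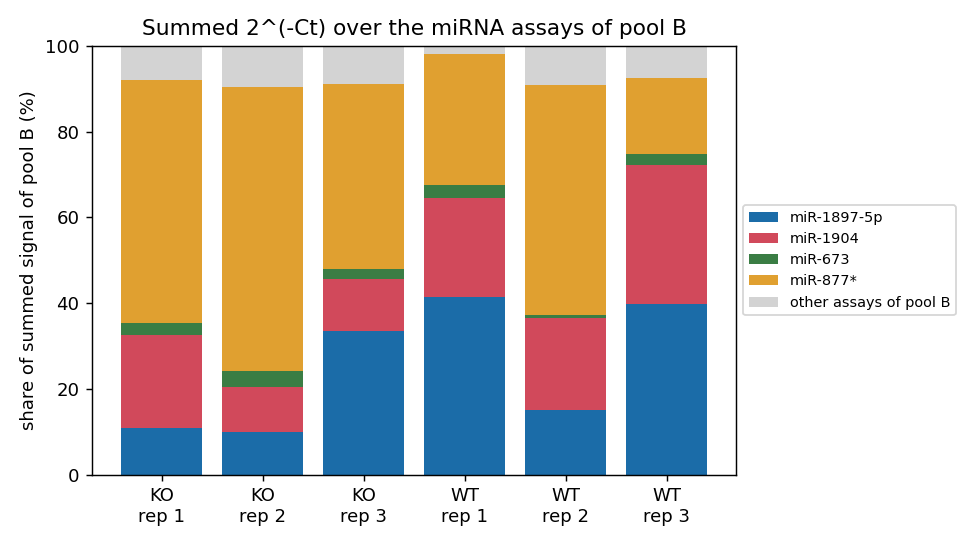
Share (%) of the summed 2^(-Ct) of the miRNA assays of pool B held by miR-1897-5p, miR-1904, miR-673, miR-877* and the other assays, for 3 KO and 3 WT samples. The 4 named assays fill at least 90.4% of each bar, and the split between miR-877* and the members varies between samples of the same genotype.

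Relative to the controls, the 3 early assays did not pass the test between KO and WT, whereas miR-1897-3p fell. The log2 relative abundance was the mean Ct of the 5 controls minus the assay's Ct in the same sample, with Ct values above 35 set to 35. All 282 assays below Ct 35 in all 3 samples of at least 1 genotype were fitted with limma (Benjamini-Hochberg adjustment, threshold 0.05). Of these, 105 (37.2%) were lower in KO and 1 (0.355%) higher. The median over all tested assays was -1.91. In pool B 21 of 103 (20.4%) were lower, and the median was -1.15.

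For miR-1897-5p the log2 relative abundance was 9.17, 7.38 and 8.94 in KO replicates 1 to 3, against 11.4, 7.73 and 8.60 in WT replicates 1 to 3. WT replicate 1 stood above all others. The difference was -0.74 ± 1.05 (SE, n = 3 per group), a fold of 0.598 with a 95% interval from 0.107 to 3.36 (limma, adjusted p = 0.606). Without WT replicate 1 the difference was 0.33, so its sign rested on that sample.

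For miR-1904 it was 10.2, 7.45 and 7.47 in KO, against 10.5, 8.23 and 8.29 in WT. Replicate 1 was the highest in both genotypes, and each KO sample lay below the WT sample of the same number. The difference was -0.66 ± 1.01 (SE, n = 3 per group), a fold of 0.633 with a 95% interval from 0.121 to 3.32 (limma, adjusted p = 0.627). Without WT replicate 1 it was 0.10. Without KO replicate 1 it was -1.56 (adjusted p = 0.199), and without KO replicates 2 or 3 it was -0.21 each time.

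For miR-673 it was 7.27, 5.94 and 5.16 in KO, against 7.60, 3.50 and 4.69 in WT. The highest and the lowest value both came from WT. The difference was 0.86 ± 1.13 (SE, n = 3 per group), a fold of 1.82 with a 95% interval from 0.281 to 11.8 (limma, adjusted p = 0.583). Without WT replicate 2 it was -0.01, without WT replicate 1 it was 2.03 (adjusted p = 0.127) and without KO replicate 1 it was 0.29. On the log2 scale the interval of miR-673 began at -1.83, and those of miR-1897-5p and miR-1904, from -3.23 to 1.75 and from -3.05 to 1.73, held both 0 and the median of all tested assays.

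For miR-1897-3p the log2 relative abundance was at most -12.9, -15.7 and -15.7 in KO, where all wells were at the ceiling, against -6.95, -6.46 and -6.49 in WT. Every KO sample was lower than every WT sample, as in 59.9% of tested assays, while 1.06% had all KO samples above all WT samples. The difference was -8.14 ± 0.87 (SE, n = 3 per group; limma, adjusted p = 0.0052), which is 282-fold lower in KO with the KO wells set to Ct 35. That size is fixed by the ceiling and not measured. With a common floor set after scaling it was -9.36 at the lowest floor and -6.22 at the highest. The highest floor was an alternative added after the data were seen. The difference was -5.14 with a ceiling of Ct 32, -13.1 with Ct as listed and -9.10 without KO replicate 1. miR-1897-3p entered the test through its WT samples alone, and its KO values are the ceiling minus the controls, so the small p adds little to the absence of amplification in the KO wells. Fitted with no filter, over all 596 assays, its adjusted p was 0.00405. Over the alternatives that could test it the adjusted p lay between 5.86e-05 and 0.042. In none of these was KO measured, since the KO wells took the ceiling, a floor or the listed Ct 40. At the common floors the 3 KO values are identical, so these p values add nothing to the absence of amplification.

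**Figure D3:**
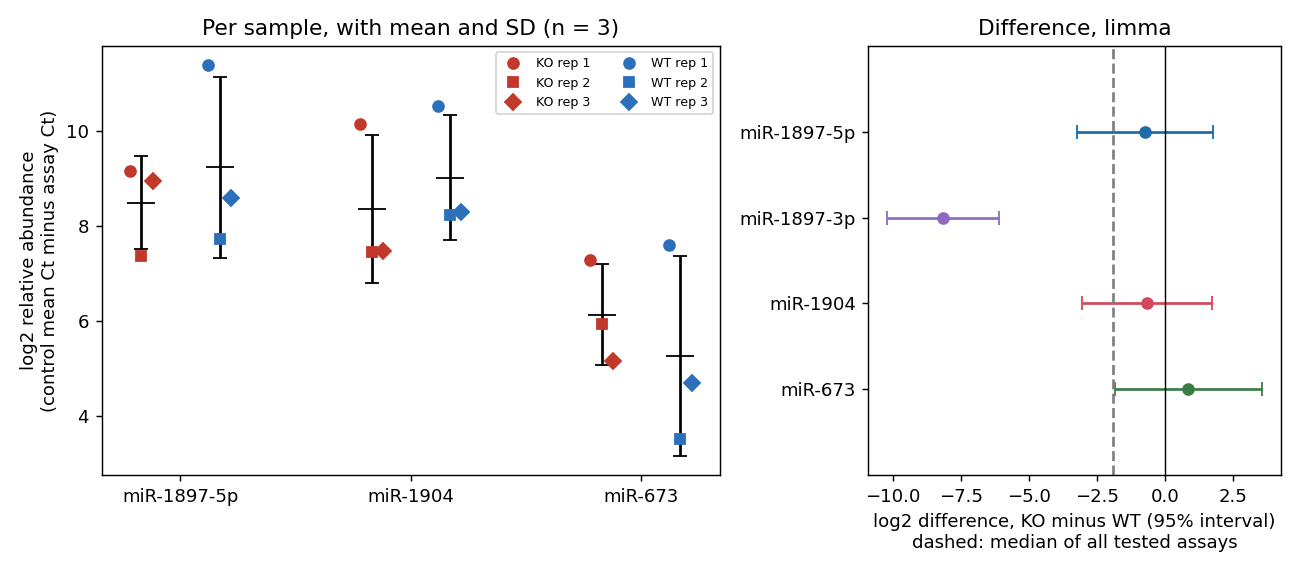
Left, log2 relative abundance of the 3 early assays in each KO and WT sample (points), with mean and SD (n = 3). Right, KO minus WT on the log2 scale with 95% intervals from limma, where the value of miR-1897-3p is set by the ceiling; only its interval lies wholly below 0, and the dashed line marks the median of all tested assays at -1.91.

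The sign of these differences was the same with each of the 5 controls, while their size varied. Set against each control in turn, KO minus WT ran from -1.02 to -0.56 for miR-1897-5p, from -0.94 to -0.48 for miR-1904, from 0.59 to 1.04 for miR-673 and from -8.42 to -7.96 for miR-1897-3p, with U6 giving the lowest value in each case. With the mean of all miRNA assays detected in all 6 samples as the reference, miR-1897-5p was at -0.10 and miR-1904 at -0.02.

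Subtracting the controls made the early assays more variable in WT. The SD over the 3 WT samples was 1.91 after scaling and 0.954 before it for miR-1897-5p, 1.32 and 0.279 for miR-1904, and 2.11 and 1.18 for miR-673. Among the 58 other assays of pool B below Ct 35 in all 6 samples, the median SD in WT was 0.633 after scaling and 1.03 before, and 18 (31.0%) became wider. In KO the scaled SD was 0.976 against 1.32 unscaled for miR-1897-5p, 1.56 against 0.101 for miR-1904 and 1.07 against 0.776 for miR-673. There 9 of the 58 others (15.5%) became wider.

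The same point shows in single samples. WT replicate 1, with the latest controls of its genotype, gave the earliest WT value for miR-1897-5p, miR-1904 and miR-673, whereas it gave the earliest value for 3 of the 58 other assays (5.17%). KO replicate 1, with the latest controls of all, gave the latest KO value of the 3 early assays, as for 55 of the 58 others (94.8%). For miR-1904 that KO delay was within 0.177 cycles. Whether these signals follow the amount of input RNA was not tested by a dilution in these data.

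A difference between a pair of assays of the same sample and pool needs no control. miR-1904 led miR-673 by 2.89, 1.51 and 2.30 cycles in KO, against 2.95, 4.73 and 3.60 cycles in WT. The groups did not overlap, though the nearest KO and WT samples were 2.89 and 2.95. KO minus WT was -1.52 (exact permutation p = 0.1, the smallest possible, and 0.12 adjusted over the 6 pairs of members). The pairs with miR-1897-3p, whose KO values are set by the ceiling, count among the 6 and lower this adjusted p.

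miR-1897-5p led miR-673 by 1.90, 1.44 and 3.78 cycles in KO, against 3.80, 4.23 and 3.91 cycles in WT. Here too the groups were separate, by a narrow margin between KO replicate 3 and WT replicate 1, with KO minus WT at -1.61 (exact permutation p = 0.1; adjusted p = 0.12). Between miR-1897-5p and miR-1904 the lead was -0.99, -0.07 and 1.48 cycles in KO, against 0.85, -0.50 and 0.31 cycles in WT, with overlap and a KO minus WT difference of -0.08 (exact permutation p = 1). Among 1830 pairs of the 61 assays of pool B below Ct 35 in all 6 samples, 29.9% had KO and WT values that did not overlap.

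**Figure D4:**
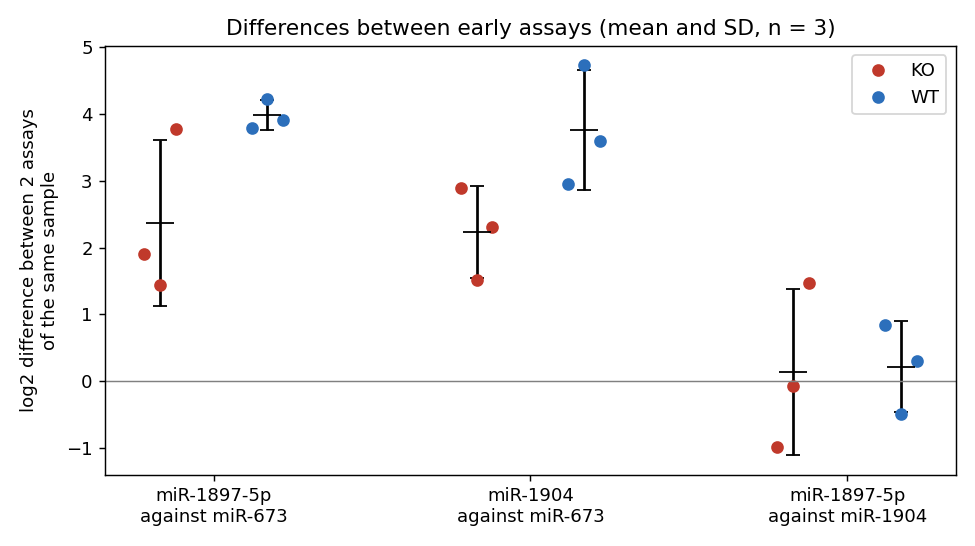
Differences in log2 signal between 2 early assays of the same sample, for KO and WT (points, with mean and SD, n = 3). Both differences against miR-673 are lower in the KO samples without overlap, and the difference between miR-1897-5p and miR-1904 lies around 0 in both groups.

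The strands of miR-1897 lay further apart in WT than those of any other hairpin with both strands below Ct 35 in all WT samples. In KO miR-1897-5p led miR-1897-3p, set to Ct 35, by 22.0, 23.1 and 24.7 cycles, against 18.3, 14.2 and 15.1 cycles in WT. With the KO wells of miR-1897-3p set to Ct 35, the groups did not overlap. The gap was then 7.40 cycles wider in KO (exact permutation p = 0.1, adjusted p = 0.12). The share of strand pairs without overlap was not computed, and the 29.9% of pairs given above leaves out miR-1897-3p. The comparison covered 40 pairs of assays with different strand labels for a hairpin, both below Ct 35 in all WT samples. A name without an arm counted as its own label, so the pairs of miR-345 need not be opposite strands. miR-345 and miR-322 enter more than once, and many pairs span pools A and B. Among the 40 pairs the WT gap of miR-1897 ranked 1st at 15.9, beside a median of 3.52. The change of its gap has no exact rank, since 7.40 is set by the ceiling and the value with Ct as listed was 12.4. The pair miR-21 and miR-21* changed in the opposite direction, by -7.93. For miR-21, though, the ratio recomputed from Ct missed the deposited ratio, so this value is uncertain. The WT level of miR-1897-5p chose the miR-1897 pair, so its rank in WT is a description. The rank also leaves out miR-673 (mean WT Ct 14.5), since miR-673-3p gave no amplification in any sample and failed the requirement.

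**Figure D5:**
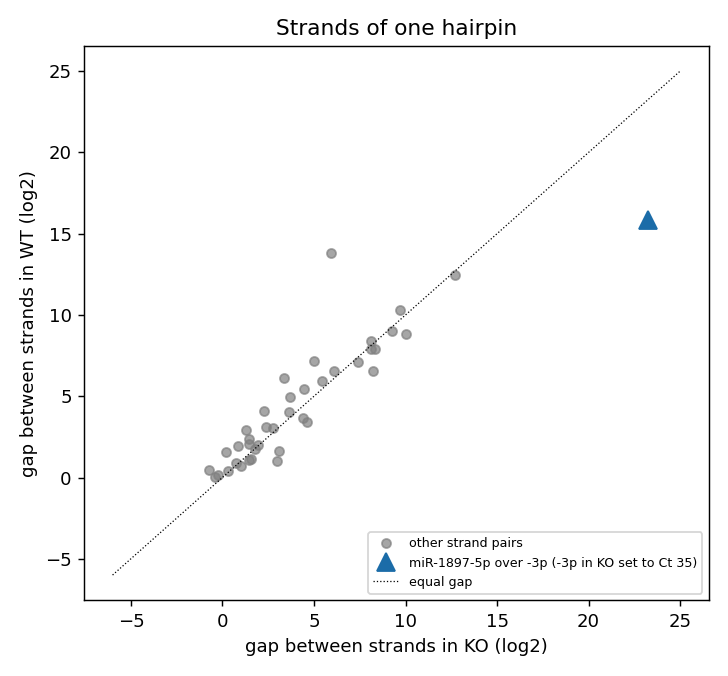
Gap in log2 relative abundance between the higher and the lower assay of a hairpin, in KO (horizontal) and WT (vertical). The 40 pairs are of assays with different strand labels. Only pairs with both strands below Ct 35 in all WT samples are shown. Among these, miR-1897 has the widest WT gap, 15.9. It lies to the right of the line of equal gaps, with its KO gap of 23.3 set by the ceiling of Ct 35.

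Assays close in number or in genome position did not share the early signals. Of the 12 other assays numbered miR-1890 to miR-1910, 7 gave no amplification in any sample, the earliest was miR-1905 at a mean Ct of 24.0 in KO and 23.8 in WT, and 4 were tested. Of these 4, 0 were lower and 0 higher past the threshold, with a median KO minus WT of 0.01 in log2 units. miR-1901, at -2.06 (adjusted p = 0.285), did not amplify in KO replicate 1. Of 17 assays for Dlk1-Dio3 neighbours of miR-673, 13 gave no amplification in any sample, and the earliest in WT, miR-127, had a mean Ct of 36.2 in KO and 32.9 in WT. The earliest in KO, miR-434-3p, had a mean Ct of 34.97 in KO and 34.3 in WT. None of these 17 listed assays met the requirement for the test, and none came near the Ct of miR-673.

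Over the 6 samples, the assay whose centred log2 relative abundance was nearest to that of miR-1897-5p was miR-150, with a root mean square difference of 0.332 against a median of 1.61 over 281 assays. miR-1274a was nearest to miR-673 (0.564, median 2.17), and miR-1937c was among its 3 nearest (0.648). miR-98, which also lacked amplification in all KO samples, was nearest to miR-1897-3p (1.56, median 3.51). For miR-1904 the nearest were miR-345-3p (0.342), miR-410 (0.364) and miR-1953 (0.392, median 1.68), assays that lie near the ceiling, where the capped Ct is nearly constant and the scaled value follows the controls. Of the assays named here, miR-150, miR-98, miR-345-3p and miR-410 lie in pool A, which is scaled by its own control wells. Likeness is over 6 samples and is a description.

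In the authors' deposited table of relative quantities, miR-1897-5p had ratios of 0.885, 0.299 and 0.781 in KO, against 4.15, 0.384 and 0.628 in WT. The authors' deposited table of folds gives 0.381 for it, while the ratio of geometric means of the same deposited quantities was 0.592; the deposited fold uses arithmetic means, and WT replicate 1 had by far the largest ratio. For miR-673 the deposited table gives 1.12 and the geometric means 1.80, and for miR-1904 they give 0.701 and 0.626. The deposited fold of miR-1897-3p, 0.000164, takes Ct 40 as a measured value. For miR-673-3p, which did not amplify in any sample, the authors' deposited table lists a fold of 1.70, a value set by the controls and the number 40 alone.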

How the data were processed

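Per the labels' protocols, RNA came from the mirVana kit and was reverse transcribed and preamplified with TaqMan reagents; instrument and Ct software are not given in the sources used here. As scores, the authors deposited the Ct of each assay, with 40 for no amplification. They also deposited relative quantities and folds, each a ratio to WT. Recomputing these ratios from Ct, with U6, snoRNA135 and snoRNA202 as the reference and the WT geometric mean as 1, matched the deposited values within 0.01 on the log2 scale for all 4 members, and missed them for 33 of 596 assays. Those 33 include miR-1, miR-21 and miR-1274a, which are named above. Whether their Ct or their deposited ratios are right was not settled. Here Ct was limited to 35 and scaled by the 5 controls of the pool. Genotypes were compared by limma 3.58.1 (R 4.3.3), and pairs of members by exact permutation (scipy 1.17.1, Python 3.11.15); the fit was tested on simulated data. RNAfold 2.7.2 gave folding energies. The amount of input is known only from the controls, and 3 samples a group limit the precision.

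The groups share replicate numbers. Deviations from the group mean correlated at 0.228, 0.283 and 0.267 across tested assays for KO and WT samples of the same number. The numbers thus count as pairs, which rests on the data, as no label states a shared batch. The main tests and intervals left this pairing out, and it entered only as the replicate block, an alternative. With the block the SE was 0.65 for miR-1897-5p, 0.36 for miR-1904, 0.68 for miR-673 and 0.87 for miR-1897-3p. Without it the SE was 1.05, 1.01, 1.13 and 0.87 in the same order. The replicate block changed no call of a member. The members, the lists and the rule for named assays were chosen with earlier results of these data known. That rule took the members, the controls, assays earlier than U6 and the 3 next later, the 3 assays most like each member, and from each list those with the smallest p and the earliest Ct; not all are printed.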

Additional observations from a re-analysis of the deposited data

How the results depend on the processing

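miR-1897-3p stayed lower in KO and past the threshold in all 16 alternatives run for it. Its log2 differences ran from -13.1 (no ceiling) to -5.14 (ceiling at Ct 32), and from -9.10 to -7.66 without any 1 sample. Each alternative set its KO values by the ceiling, a floor or the listed Ct 40, so this direction was fixed beforehand and is no support. miR-1897-3p could not be tested with assays required in all 6 samples. The 3 early assays never passed: adjusted p ran from 0.324 to 0.955 for miR-1897-5p, from 0.192 to 0.994 for miR-1904 and from 0.127 to 0.991 for miR-673. With the replicate block their adjusted p values were 0.384, 0.192 and 0.338, with unchanged differences of -0.74, -0.66 and 0.86, and that of miR-1897-3p was 0.042 at -8.14. Leaving out 1 sample gave differences from -1.50 to 0.33 for miR-1897-5p, positive without WT replicate 1, from -1.56 to 0.10 for miR-1904, positive without WT replicate 1, and from -0.015 to 2.03 for miR-673, negative without WT replicate 2. With the global mean as reference they were -0.10, -0.02 and 1.51.

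The number of assays past the threshold, 106, was 3 with the global mean, 2 without a reference and 3 without a filter, and ran from 3 to 115 without any 1 sample: 3, 4 and 3 without WT replicates 1, 2 and 3, and 4 without KO replicate 2. The causes were not tested. Pairs of members kept their sign in all alternatives except miR-1897-5p against miR-1904, which ran from -0.75 to 0.48 without any 1 sample and was 0.48, 0.03 and 0.23 without KO replicate 1, KO replicate 2 and WT replicate 1. With the replicate block the pairs of members had an unchanged difference. Their exact permutation p was then 0.25, except for miR-1897-5p against miR-1904, where it was higher. The control Ct difference, 0.573 in pool A and 0.429 in pool B, was -0.44 and -0.53 without KO replicate 1, and reached 1.31 and 1.07 without another sample.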
